A study of Mus musculus with 6 samples.

Results

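Hepcidin control and hepatocyte iron handling were followed through 10 of the 25184 genes in the count table, in 6 RNA sequencing libraries of primary mouse hepatocytes. The genes were chosen by name: the hepcidin genes *Hamp* and *Hamp2*, the iron sensors *Tfr2* and *Hfe*, the uptake receptor *Tfrc*, the exporter *Slc40a1*, the ferritin genes *Fth1* and *Ftl1*, and *Id1* and *Smad7*, which respond to the same signal as hepcidin. The study asked what hepatocytes do without *Sucnr1*, which encodes a cell surface receptor for succinate. The control group was 3 mice with floxed *Sucnr1* (Sucnr1 fl/fl), and the other group was 3 mice that carried the floxed alleles together with 1 copy of Cre recombinase under the albumin promoter, which is active in hepatocytes (Alb-Cre+/- Sucnr1 fl/fl, called Hep-Sucnr1 KO). The controls carried no Cre, so Cre itself and the deletion cannot be told apart. The Cre line had a C57BL6J background, all mice were fed chow, and age and sex were not given for these libraries. Hepatocytes came from the left lateral lobe after enzymatic digestion and a density gradient, and were kept overnight on collagen in a serum-containing medium before RNA was taken. Extraction day 1 held 1 library of each genotype, and day 2 held 2.

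Hepcidin is a peptide hormone that hepatocytes secrete. It binds ferroportin, the iron exporter encoded by *Slc40a1*, blocks it and causes its loss from the cell surface, and so lowers the release of iron from the gut, macrophages and hepatocytes. Liver endothelial cells report iron stores to hepatocytes through BMP6 and BMP2, whose receptors act on *Hamp* through SMAD proteins, while transferrin receptor 2 and HFE sense iron-loaded transferrin in blood and IL-6 acts on *Hamp* through STAT3 in inflammation. Inside the cell, iron regulatory proteins bind hairpins called iron-responsive elements in messenger RNAs: in the 5′ UTR they block translation, and in the 3′ UTR they protect the messenger from decay.

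*Hamp* and *Hamp2* lie next to each other on the minus strand of mouse chromosome 7 (GRCm38), *Hamp* at chr7:30942368-30944032 and *Hamp2* at chr7:30922372-30924681. Their proximal promoters are shown because they carry the places where the BMP and the IL-6 signals are known to reach hepcidin. Both stretches are 129 bases long and are taken from RefSeq promoters of GRCm38.p6. That of *Hamp* ends at the base before its RefSeq start site. That of *Hamp2* is the stretch aligned to it, whose last 3 bases lie at and after its own RefSeq start site. The gene positions above are those of GENCODE, whose 5′ ends lie further upstream. By them the whole *Hamp2* stretch and the end of the *Hamp* stretch fall within the genes. The capitals mark the core of the BMP response element, GGCGCC, or the aligned letters, and the STAT core, TTCNNNGAA.
Hamp, chr7:30944030-30944158, minus strand: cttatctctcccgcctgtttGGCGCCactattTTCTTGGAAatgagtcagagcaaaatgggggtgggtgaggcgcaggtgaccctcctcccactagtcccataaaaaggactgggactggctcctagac
Hamp2, chr7:30924179-30924307, minus strand: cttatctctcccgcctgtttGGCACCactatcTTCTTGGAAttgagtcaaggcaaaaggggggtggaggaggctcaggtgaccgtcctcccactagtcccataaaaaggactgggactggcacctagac
The stretches were identical at 118 of 129 positions (91.5%), with no gap. Counted from 1 at the 5′ end of the printed *Hamp* stretch, with the *Hamp* base first, the substitution G24A fell inside the BMP core, and none fell inside the STAT core. Each motif equals its own reverse complement, so both strands were searched at once, and the motifs do not overlap in either stretch. Of 32817 RefSeq promoter windows of 300 bases (250 before and 50 after a start site), 11.9% held GGCGCC and 8.29% held TTCNNNGAA. Of the 10 genes, 7 had a window in the table. GGCGCC occurred in the *Hamp* window and in 1 of 2 windows of *Tfrc*, and TTCNNNGAA only in those of *Hamp* and *Hamp2*. *Id1*, *Smad7* and *Slc40a1* had no entry.

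Of 9 genes searched in their first GENCODE transcript (*Smad7* was not), 4 carried letters of an iron-responsive element. They are shown because these hairpins, and not promoters, set much of the cell's control of uptake, storage and export. The capitals mark the bulged C and the 6-base loop, in DNA letters, and both sides of the upper stem pair in full, G with T allowed, as do at least 4 of 6 pairs below it.
Fth1, 5′ UTR, chr19:9982732-9982760, plus strand: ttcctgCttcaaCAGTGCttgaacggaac
Ftl1, 5′ UTR, chr7:45459779-45459807, minus strand: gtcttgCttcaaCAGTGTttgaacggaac
Slc40a1, 5′ UTR, chr1:45925465-45925493, minus strand: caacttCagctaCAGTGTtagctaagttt
Tfrc, 3′ UTR, chr16:32631219-32631247, plus strand: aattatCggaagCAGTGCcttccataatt
Tfrc, 3′ UTR, chr16:32631710-32631738, plus strand: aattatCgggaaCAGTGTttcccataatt
*Tfrc*, whose product imports iron-loaded transferrin, held 4 such elements, of which 2 are printed. *Fth1* and *Ftl1*, which encode the heavy and the light subunit of the ferritin shell, and *Slc40a1* held 1 each. The same letters and pairing were found in 35 of 21877 protein-coding genes (0.16%). That search took every protein-coding transcript of a gene and was thus wider than that of the first transcript. A match is a description of the sequence and not a measurement of binding.

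The libraries held between 30504248 and 38770694 counts. *Sucnr1* had 258, 118 and 103 counts in the control libraries 1, 2 and 3 and 84, 28 and 5 in the Hep-Sucnr1 KO libraries 3, 4 and 5. The groups did not overlap, and the log2 ratio of Hep-Sucnr1 KO to control was −2.23 in edgeR's fit (SE 0.54). DESeq2 gave an adjusted p of 0.033, and the quasi-likelihood test of edgeR, adjusted over all genes by Benjamini-Hochberg, gave 0.998. KO library 3 kept the most *Sucnr1* of its group, 2.66 CPM (counts scaled to library size) against 3.40 in the lowest control. The 6 hepatocyte markers, albumin and transthyretin among them, summed to between 60640 and 96220 CPM in every library. Kupffer cell markers, of liver macrophages, summed to between 28.9 and 105 CPM in the controls and to between 6.01 and 89.7 CPM in Hep-Sucnr1 KO, and all 9 were detected in every library. Sinusoidal endothelial markers summed to between 33.1 and 61.4 CPM in the controls and to between 25.8 and 39.6 CPM in Hep-Sucnr1 KO. In such bulk samples, fewer cells of a type and less RNA per cell cannot be told apart.

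Among the 10 genes, hepcidin and the ferritins stood far above the rest per length. As mean CPM per kb of exon over the 6 libraries, *Hamp* was at 2012 (range 1366 to 2454), *Ftl1* at 1918 (1722 to 2115) and *Fth1* at 721 (608 to 761). *Hamp* and *Ftl1* overlapped and cannot be ordered. *Tfr2* followed at 58.7 CPM per kb and *Hamp2* at 11.9. *Hfe* was at 8.42, *Slc40a1* at 5.72 and *Tfrc* at 4.45, and *Id1* (2.39) and *Smad7* (1.79) were lowest. From *Hamp2* to *Smad7*, neighbours in this order overlapped in their ranges over the libraries, other than *Tfrc* and *Id1*. The exons of some genes include retained introns, and per kb of the principal transcript *Ftl1* led at 2655, ahead of *Hamp*, while *Fth1* reached 1673 and *Slc40a1* 15.3. Within a library, *Hamp* had between 81.3 and 179 times the CPM of *Hamp2*, and *Fth1* and *Ftl1* stayed close to each other in CPM, with a ratio between 0.882 and 1.05.

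**Figure D1:**
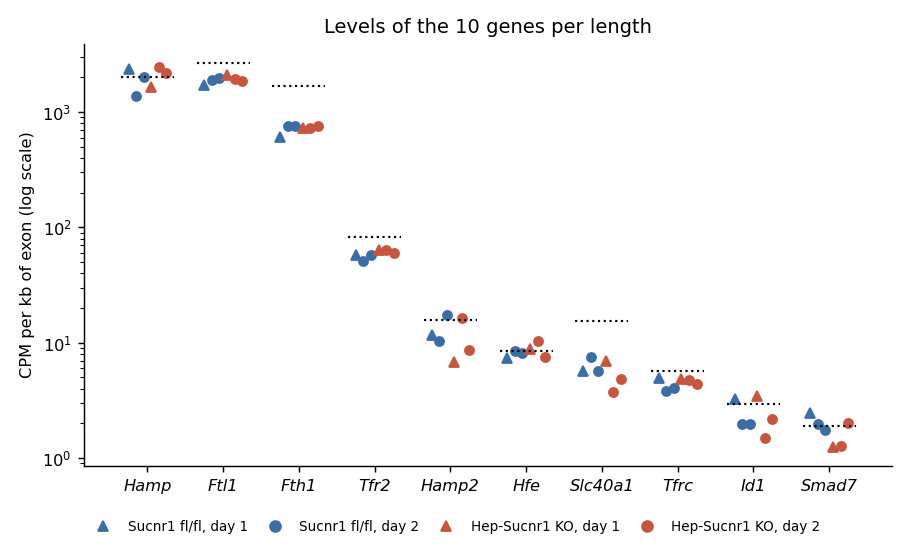
Level of the 10 genes in CPM per kb of exon on a log axis, for each of the 6 libraries (blue, control; red, Hep-Sucnr1 KO; triangles, extraction day 1; circles, day 2), in order of the mean; dotted lines give the mean per kb of the principal transcript. *Hamp*, *Ftl1* and *Fth1* lie between 608 and 2454 CPM per kb, and all others at 63.2 or less.

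No difference between the genotypes was detected for hepcidin. *Hamp* stood at 973, 560 and 831 CPM in control libraries 1, 2 and 3 and at 676, 1006 and 903 CPM in Hep-Sucnr1 KO libraries 3, 4 and 5. The lowest and the highest library belonged to different genotypes and the groups overlapped. The means were 788 ± 210 and 862 ± 169 CPM (SD, n = 3 each; exact permutation test, two-sided, p = 0.6, where the smallest p possible is 0.1). The permutation test, here and below, takes no account of extraction day. With extraction day in the model, the log2 fold change was 0.13 (SE 0.26), with a 95% interval from −0.47 to 0.74, or from 0.720-fold to 1.67-fold. The sign rested on control library 2, the lowest of all, and without it the log2 fold change was −0.12.

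*Hamp2*, the second mouse hepcidin gene, whose part in iron balance is not established, stood at 6.84, 6.01 and 10.2 CPM in the controls and at 3.99, 9.45 and 5.04 CPM in Hep-Sucnr1 KO. The highest library was a control and the lowest a KO, and the groups overlapped. Its log2 fold change was −0.36 (SE 0.32; 95% interval −1.11 to 0.39). Leaving out KO library 4 moved it to −0.73, with an unadjusted p of 0.037. The transcripts of the 2 genes were 94.6% identical over 410 bases, with a longest shared run of 87 bases, and how read pairs that match both were counted was not given. *Hamp2* had between 126 and 320 counts, 0.558% to 1.23% of those of *Hamp*, and the values of both are uncertain to the extent that shared pairs were discarded or assigned to one of them. With both summed into one row the log2 fold change was 0.13.

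**Figure D2:**
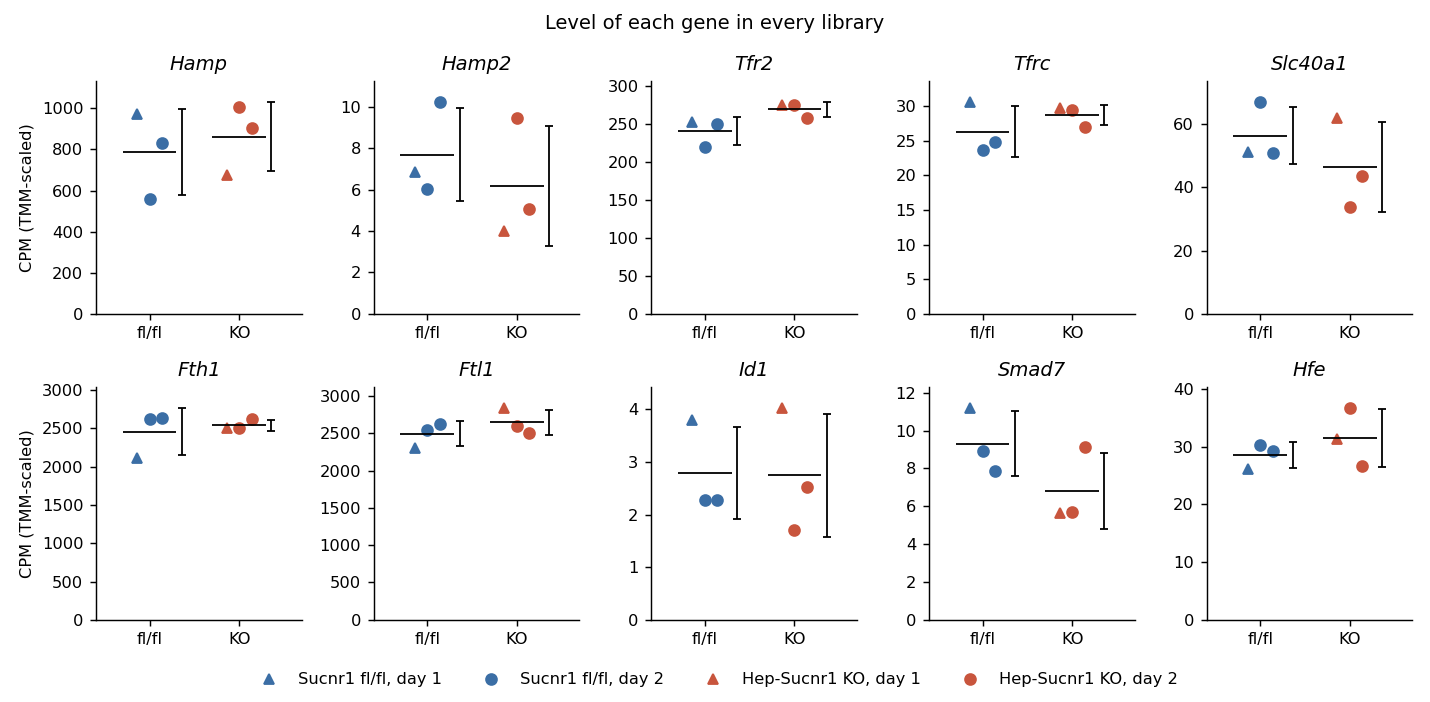
CPM of each of the 10 genes in every library, in 1 panel a gene with the axis from 0 (blue, control; red, Hep-Sucnr1 KO; triangles, extraction day 1; circles, day 2); horizontal lines are means and the bars beside them SDs of 3 libraries. Only for *Tfr2* do the groups not overlap, with controls from 220 to 252 CPM and Hep-Sucnr1 KO from 258 to 274.

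No difference between genotypes passed a test for the genes of transferrin sensing and uptake. *Tfr2*, whose product senses iron-loaded transferrin and acts on hepcidin, stood at 252, 220 and 249 CPM in the controls and at 274, 274 and 258 CPM in Hep-Sucnr1 KO. These groups did not overlap, as was the case for 1 of the 10 genes and for 10.6% of all genes tested. The difference was small, with means of 241 ± 17.9 and 269 ± 9.50 CPM (SD, n = 3 each; exact permutation test, two-sided, p = 0.1). Its log2 fold change was 0.16 (SE 0.12; 95% interval −0.12 to 0.44) and lay between 0.10 and 0.21 with any 1 library left out.

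*Hfe*, the gene mutated in the common form of haemochromatosis, stood at 26.2, 30.4 and 29.2 CPM in the controls and at 31.4, 36.7 and 26.6 CPM in Hep-Sucnr1 KO, with overlapping groups. Its log2 fold change was 0.15 (SE 0.14). *Tfrc* stood at 30.6, 23.6 and 24.8 CPM in the controls and at 29.7, 29.5 and 27.0 CPM in Hep-Sucnr1 KO. The control of day 1 was the highest, and the log2 fold change was 0.13 (SE 0.11; 95% interval −0.13 to 0.40). *Tfrc* is the gene with 4 matches to the element in its 3′ UTR, and whether they protected its messenger here was not measured.

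Ferritin genes, for storage, varied little. *Fth1* stood at 2108, 2626 and 2641 CPM in the controls and at 2499, 2504 and 2623 CPM in Hep-Sucnr1 KO. Apart from control library 1, all libraries lay between 2499 and 2641 CPM. *Ftl1* stood at 2308, 2550 and 2627 CPM in the controls and at 2834, 2596 and 2506 CPM in Hep-Sucnr1 KO, with the lowest and the highest value in the libraries of day 1. The log2 fold changes were 0.06 (SE 0.15; 95% interval −0.30 to 0.41) for *Fth1* and 0.08 (SE 0.15; 95% interval −0.28 to 0.45) for *Ftl1*. The sign of both turned without the libraries of day 1, to −0.05 and −0.03. Ferritin is largely controlled at translation through the elements printed above, which a count of messenger RNA does not measure. Reads of *Ftl1* can also match its pseudogenes *Ftl1-ps1* and *Ftl2-ps*, whose sequences were 99.5% identical to it over 208 bases and 98.7% over 552 bases. They had between 5528 and 6593 and between 3912 and 4543 counts, and adding them left the log2 fold change of *Ftl1* at 0.09.

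*Slc40a1*, the target of hepcidin, stood at 51.3, 67.1 and 51.1 CPM in the controls and at 62.0, 33.9 and 43.5 CPM in Hep-Sucnr1 KO. The 2 KO libraries of day 2 were the lowest of all, while that of day 1 was the second highest. For the exporter the log2 fold change was −0.32 (SE 0.22; 95% interval −0.84 to 0.21). On day 2 alone it was −0.62 with an unadjusted edgeR p of 0.026 and an adjusted p of 0.9996; over all alternatives the adjusted p lay between 0.949 and 0.9998. Leaving out control library 1 (−0.61) or KO library 3 (−0.62) leaves 1 library on day 1, which the day term absorbs. Both fits thus repeat that of day 2 and are no separate check. The log2 fold change was −0.12 without control library 2 and −0.13 without KO library 4. Kupffer cells also express this exporter, and in the order of the libraries given above their markers summed to 33.6, 28.9 and 105 CPM in the controls and to 6.01, 89.7 and 66.4 CPM in Hep-Sucnr1 KO. *Slc40a1* was thus highest in the 2 libraries with the lowest marker sums. The part of these cells in its level was not tested.

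*Id1* and *Smad7* are induced by BMP signals in the liver, and SMAD7 feeds back as an inhibitor of SMAD signalling. *Id1*, at 58 to 146 counts a library, stood at 3.80, 2.29 and 2.27 CPM in the controls and at 4.02, 1.71 and 2.52 CPM in Hep-Sucnr1 KO. Its 2 highest libraries were those of day 1, one of each genotype, and the log2 fold change between genotypes was −0.04 (SE 0.22). *Smad7* stood at 11.2, 8.93 and 7.84 CPM in the controls and at 5.63, 5.70 and 9.14 CPM in Hep-Sucnr1 KO. KO library 5 lay within the control range and the others below it. For *Smad7* the log2 fold change was −0.45 (SE 0.25; 95% interval −1.04 to 0.15; exact permutation test of mean CPM, two-sided, n = 3 each, p = 0.3). Without KO library 5 it was −0.74, with an unadjusted p of 0.0070 and an adjusted p of 0.705 in edgeR. On day 2 alone it was −0.19, which leaving out control library 1 repeats (−0.18). Its adjusted p over all alternatives lay between 0.705 and 0.9998.

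By edgeR's quasi-likelihood test, none of the 10 genes had an unadjusted p under 0.05 for genotype, where 562 of 15105 genes tested (3.72%) did. No gene of the 15105 passed after Benjamini-Hochberg adjustment (0.0%; smallest adjusted p 0.998), and DESeq2 called 7 of the 11005 genes it gave an adjusted p (0.0636%), none of them among the 10. The log2 fold changes of 6 genes were above 0 and those of 4 below, with a median of 0.07 against 0.003 over all genes tested. All 10 intervals included 0, and those of 5 lay within 0.5 on either side of it. On the 4 libraries of day 2 alone the median was −0.039 and 1 gene, *Slc40a1*, had an unadjusted p under 0.05.

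**Figure D3:**
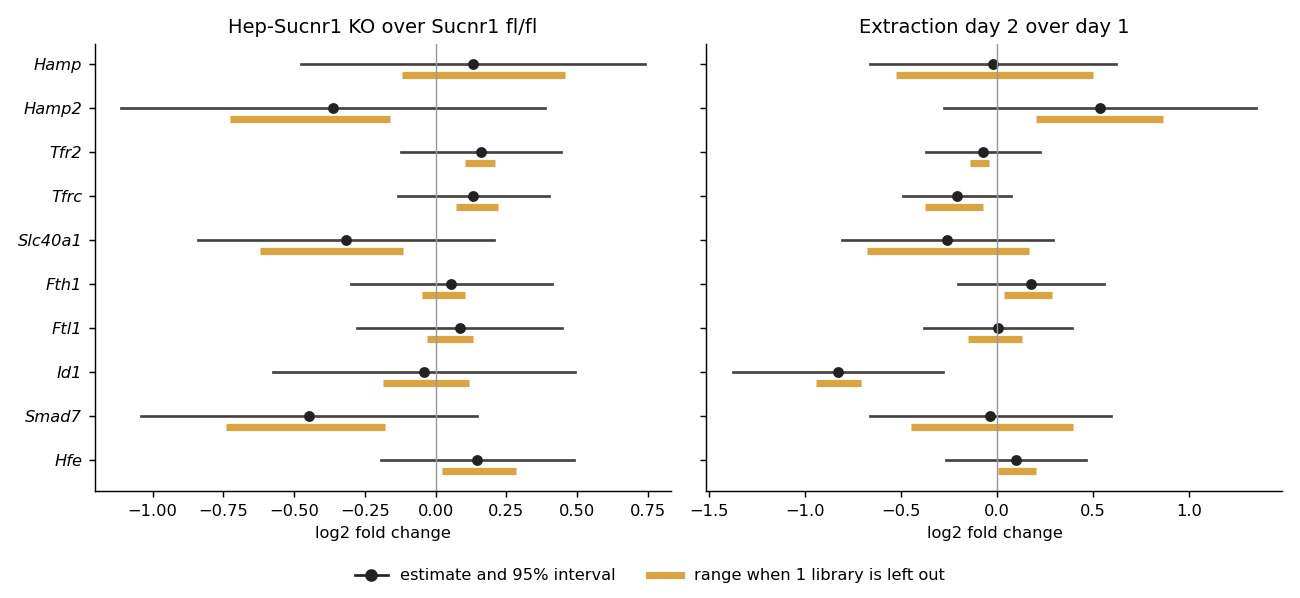
Log2 fold change of each of the 10 genes between genotypes (left) and between extraction days (right); points and thin lines are estimates with 95% intervals from edgeR's model of both terms, and thick lines the range of estimates when each library is left out in turn. All genotype intervals cross 0, and between days only that of *Id1* does not, at −0.83.

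Of the 10 genes, *Id1* had the largest estimate between extraction days. The 2 libraries of day 1 had 3.80 and 4.02 CPM, and the 4 of day 2 lay between 1.71 and 2.52 CPM. From day 1 to day 2 the log2 fold change was −0.83 (SE 0.23; 95% interval −1.38 to −0.28; unadjusted p = 0.0090). It did not pass edgeR's Benjamini-Hochberg adjustment over all genes (adjusted p = 0.51, and between 0.162 and 0.9997 over the alternatives). *Id1* was 1 of 10 genes with an unadjusted p under 0.05, against 7.49% of all genes tested, and no gene passed the adjustment (0.0%). DESeq2, in which 225 genes passed between the days, gave *Id1* an adjusted p of 0.162. Without KO library 3 its unadjusted p was 0.075. Endothelial cells are rich in *Id1*, and the sinusoidal endothelial sums of the libraries of day 1 were the highest and the lowest of the 6, at 61.4 CPM in control library 1 and 25.8 CPM in KO library 3. Markers of stellate cells, the pericytes of the liver, summed to 20.6 and 7.09 CPM in those libraries and to between 3.43 and 7.76 CPM on day 2. The 3 of these 6 markers that passed the filter had estimates below 0 between days, like *Id1*, with a median of −1.17 and 2 under 0.05 without adjustment. *Des*, a defining marker, was at 0 in 3 libraries. The part of either cell type in the level of *Id1* was not tested. The days did not overlap for 3 of the 10 genes, *Id1*, *Tfrc* and *Fth1*, against 14.8% of all genes. The Kupffer cell markers had larger estimates, since all 9 were higher on day 2 and their median log2 fold change was 2.05, with 6 at an unadjusted p under 0.05. Their sums overlapped between the days, at 33.6 and 6.01 CPM on day 1 and from 28.9 to 105 CPM on day 2. The lowest sum was that of KO library 3, and for 3 of the 9 markers the days did not overlap.

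Within each day, *Hamp* and *Slc40a1* were ordered in opposite ways. This comparison was not planned, and the share of other genes ordered opposite to *Hamp* was not counted. Hepcidin acts on the ferroportin protein, which these counts of messenger RNA do not measure. On day 1, the KO library had less *Hamp* than the control (log2 ratio −0.52, 1 library each, no test) and more *Slc40a1* (0.27). On day 2, both KO libraries had more *Hamp* than both controls and less *Slc40a1*. The log2 fold change of *Hamp* on day 2 alone was 0.45, with an unadjusted p of 0.10. The difference of the genotype effect between days was 0.98 for *Hamp* (SE 0.43, unadjusted p = 0.061) and −0.88 for *Slc40a1* (SE 0.35, unadjusted p = 0.046), with an adjusted p of 0.9997 for both in edgeR. *Slc40a1* was the only one of the 10 genes with an unadjusted p under 0.05 in that test, where 3.69% of all genes had one. As day 1 rests on 1 library of each genotype, a difference between days and a difference between single mice cannot be told apart.

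The other genes of the pathway were read from 9 lists with 63 genes, of which 60 passed the filter on low counts. *Erfe*, the hepcidin suppressor made by erythroid precursors, had 3 to 8 counts and *Heph*, the ferroxidase of the gut, 3 to 9, and *Ftmt* was not analysed here. For genotype, 2 of the 60 genes had an unadjusted p under 0.05, both higher in Hep-Sucnr1 KO, where 3.72% of all genes had one. Of the 60, 21 estimates were above 0 and 39 below, with a median of −0.06. Over all genes tested, 7624 were above and 7481 below. The groups did not overlap for 6 of the 60, against 10.6% of all genes tested.

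The signal that drives hepcidin was represented by 3 lists, none with a gene under 0.05 in edgeR's main fit. Of 10 BMP ligands and receptors, 9 had estimates below 0, with a median of −0.17. *Inhbb*, the subunit of activin B, differed most, at 18.1, 12.5 and 12.2 CPM in the controls and 6.39, 11.3 and 10.1 CPM in Hep-Sucnr1 KO, without overlap. Its log2 fold change was −0.63 (SE 0.26, unadjusted p = 0.05002), and −0.22 on day 2 alone. The 4 BMP SMAD proteins had a median of −0.16, with *Smad9* furthest at −0.38 (SE 0.49). All 6 other BMP target genes had estimates below 0, with a median of −0.41. On day 2 alone 5 of the 6 did, *Id2* being at 0.21, and the median was −0.26. Leaving out control library 1 (median −0.25) or KO library 3 (−0.26) repeats the day 2 fit and is no separate check. *Id4* differed most at −0.73 (SE 0.40, unadjusted p = 0.11), and stood at 3.69 CPM in control library 1 and between 0.856 and 1.38 CPM in the others. *Smad6*, at −0.64 (SE 0.31, unadjusted p = 0.076), was the 1 of the 6 whose groups did not overlap, against 10.6% of all genes tested. On day 2 alone *Id4* was at −0.20 and *Smad6* at −0.32. *Id3*, the most abundant of the 6, stood at 336, 325 and 311 CPM in the controls and at 331, 286 and 319 CPM in Hep-Sucnr1 KO. Control library 1, highest in *Id4*, also had the highest sums of sinusoidal endothelial markers (61.4 CPM, against 25.8 to 39.6 in the others) and of stellate cell markers (20.6 CPM, against 3.43 to 7.76). The part of those cells was not tested.

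Among the suppressors of hepcidin tested, *Fgl1* had the largest log2 fold change between genotypes. It encodes a protein secreted by hepatocytes that antagonises BMP ligands. *Fgl1* stood at 138, 214 and 187 CPM in the controls and at 487, 340 and 350 CPM in Hep-Sucnr1 KO. Every KO library lay above every control, and the groups did not overlap for 10.6% of all genes tested. On day 1 the log2 ratio was 1.82 (1 library each, no test). The log2 fold change of *Fgl1* was 1.12 (SE 0.23, unadjusted p = 0.0018) and between 0.77, on day 2 alone, and 1.27 over the alternatives. DESeq2 called it with an adjusted p of 0.012, while in edgeR the adjusted p was 0.998, and between 0.308 and 0.9996 in the edgeR alternatives. *Tmprss6*, the protease that cuts the BMP co-receptor hemojuvelin, had a log2 fold change of −0.07 (SE 0.13). The 7 genes of the IL-6 and STAT3 input had a median of −0.11, with none under 0.05 and *Jak1* furthest at −0.21 (SE 0.16).

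In iron uptake and transport, 1 of 8 genes tested had an unadjusted p under 0.05, against 3.72% of all genes tested. *Scara5*, a receptor for ferritin, stood at 3.67, 5.80 and 5.24 CPM in the controls and at 6.61, 21.8 and 5.61 CPM in Hep-Sucnr1 KO. These groups overlapped. The difference rested on KO library 4: the log2 fold change was 1.16 (SE 0.46, unadjusted p = 0.040) with it and 0.38 without it. Transferrin (*Trf*), the iron carrier of plasma, lay between 11250 and 14850 CPM and had a log2 fold change of 0.16 (SE 0.19). No gene of iron sensing and storage, haem handling or mitochondrial iron had an unadjusted p under 0.05 for genotype, and the medians were −0.01, 0.09 and 0.11.

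Between extraction days, 4 of the 60 genes had an unadjusted p under 0.05, 2 in each direction, against the 7.49% of all genes. *Alas1*, which catalyses the rate-limiting step of haem synthesis in the liver, stood at 97.2 and 101 CPM on day 1 and between 171 and 273 CPM on day 2. The days did not overlap, and the log2 fold change was 1.00 (unadjusted p = 0.0022). Its adjusted p was 0.43 in edgeR's main fit and 0.0035 in DESeq2. Over the edgeR alternatives it lay between 0.033, without the filter on low counts, and 0.9997. *Slc25a28*, an importer of iron into mitochondria, had a log2 fold change of 0.58. *Ncoa4*, the cargo receptor that carries ferritin to lysosomes, had one of −0.43 and *Glrx5*, of iron-sulphur cluster assembly, one of −0.30. The adjusted p of these 3 genes lay between 0.50 and 0.57 in edgeR's main fit.

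**Figure D4:**
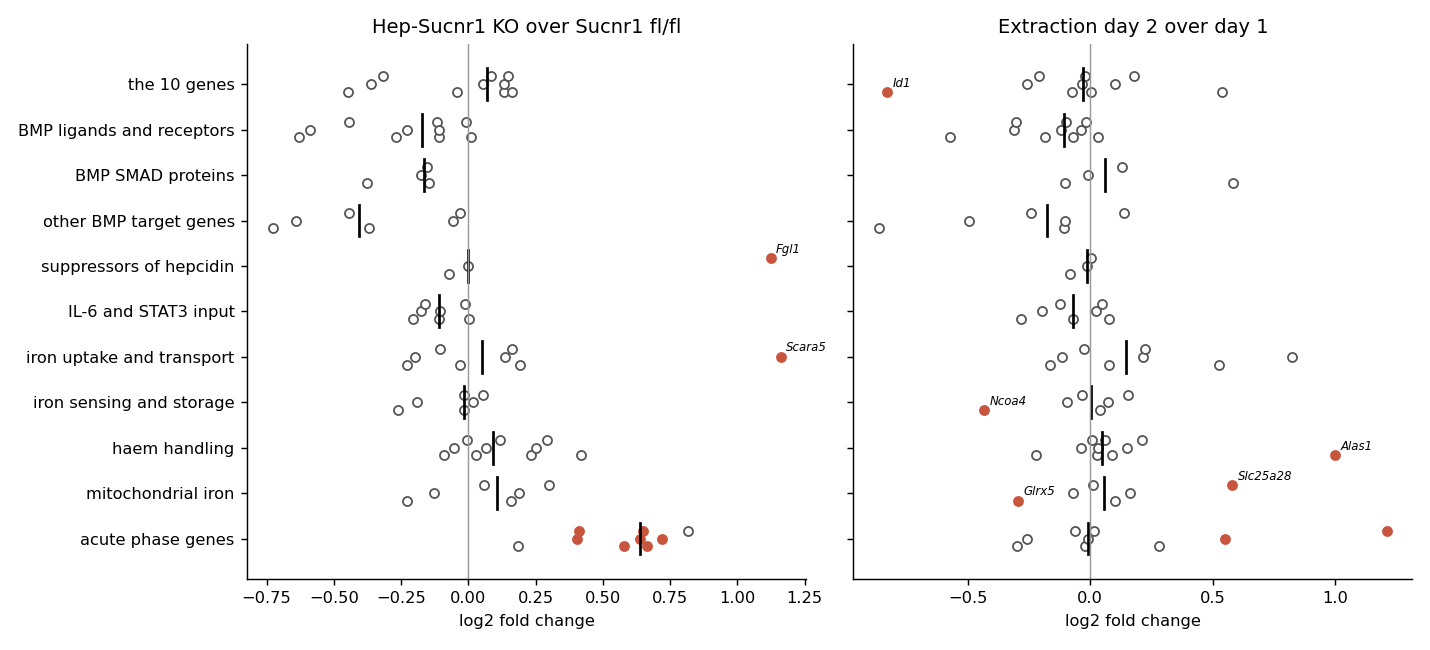
Log2 fold changes between genotypes (left) and extraction days (right) of the 10 genes, the 9 pathway lists and the acute phase genes; each circle is a gene, filled where its unadjusted p was under 0.05 (names given outside the acute phase list), and black bars are medians. Between genotypes, *Fgl1* at 1.12 and *Scara5* at 1.16 are the filled circles outside the acute phase genes.

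Hepcidin is itself an acute phase gene, and its level was therefore set beside 9 genes of that response. For genotype, all 9 had estimates above 0, with a median log2 fold change of 0.64, and 7 had an unadjusted p under 0.05, against 3.72% of all genes tested. In 6 of the 9 the groups did not overlap, against 10.6% of all genes. *Saa1*, serum amyloid A, stood at 1426, 1154 and 1536 CPM in the controls and at 2719, 1894 and 1936 CPM in Hep-Sucnr1 KO, a log2 fold change of 0.65 (SE 0.18). *Lbp*, which binds bacterial lipopolysaccharide, had one of 0.67 (SE 0.12), and it was the only one of the 9 that DESeq2 called (adjusted p = 0.018), while no adjusted p of edgeR passed. The others under 0.05 were *Saa2* (log2 fold change 0.72), *Orm2* (0.64), *Lcn2* (0.58), *Hp* (0.41) and *Orm1* (0.40), all made by the liver in inflammation. Between extraction days, *Saa3* (1.21) and *Lcn2* (0.55) were under 0.05 without adjustment. The list was chosen with results of these libraries known and is not independent evidence of its direction. *Hamp* had a log2 fold change of 0.13 with an interval that reached 0.74, so a change of the median size of the list was not outside its interval. The library with the most *Saa1*, KO library 3, had less *Hamp* than 4 of the others. Within its group it was also highest in *Saa2*, *Orm1*, *Orm2* and *Hp*. In *Lbp* (136.5 CPM, against 162.2 and 172.7 in KO libraries 4 and 5), *Lcn2* and *Saa3* it was the lowest of its group, as in *Hamp*.

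**Figure D5:**
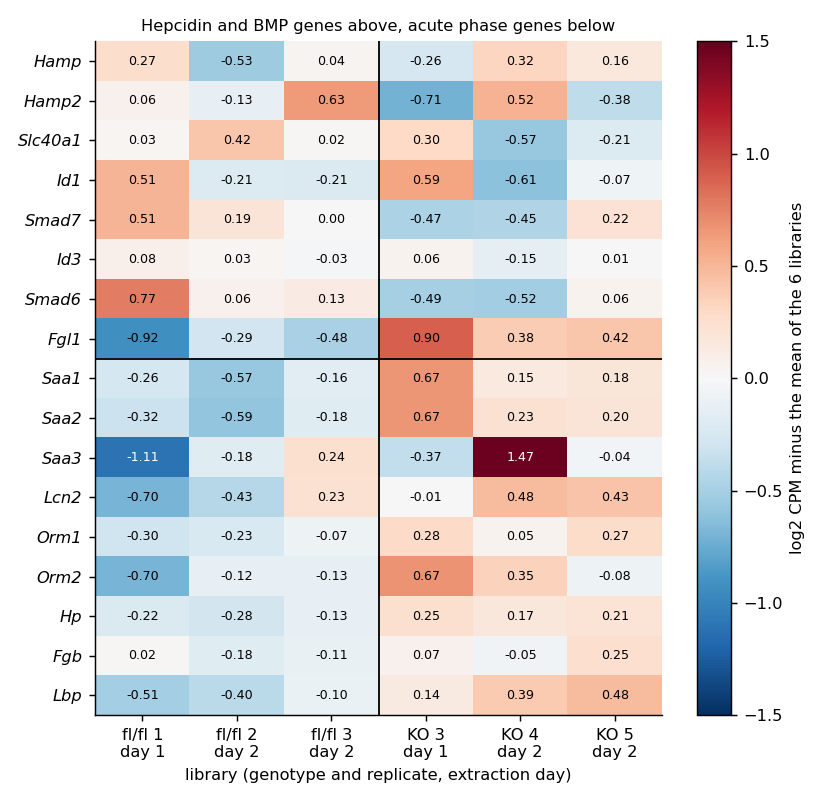
Log2 CPM of each library minus the 6-library mean, for hepcidin, exporter and BMP-related genes (above the line) and acute phase genes (below it), with the value in each cell. KO library 3 is lowest in *Hamp2* at −0.71 and highest in *Saa1* at 0.67.

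By the shape of its level over the 6 libraries, *Hamp* was most like *Pdha1*, of the pyruvate dehydrogenase complex, the choline transporter *Slc44a1*, the transcriptional repressor *Hic1*, the CREB coactivator *Crtc2* and *Suclg2*, of succinyl-CoA ligase. Their Pearson correlations with *Hamp* lay between 0.982 and 0.987 over 6 libraries, among 11713 genes with a mean of at least 1 CPM. With so few points high values arise readily, and 78 genes were above 0.9. All 5 had *Hamp*'s low value in control library 2. The libraries share the same scaling and the values are a description only.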

How the data were processed

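Libraries were prepared with a stranded mRNA kit and sequenced in pairs. The authors trimmed the reads (Trim Galore 0.6.7), aligned them to GRCm38 (STAR 2.7.10a) and counted read pairs per gene with strand (featureCounts, Ensembl annotation), and deposited raw counts in 1 table of 25184 genes and 6 libraries. The handling of pairs that match several genes was not given in the sources used here. Groups, replicate numbers and extraction days came from the labels, and each library is 1 mouse. A mean normalized count above 5 was required, which left 15105 genes. CPM were scaled with TMM factors, and edgeR 4.0.16 (R 4.3.3) fitted extraction day and genotype by quasi-likelihood over all genes, with Benjamini-Hochberg adjustment at 0.05. Differences are given as log2 of Hep-Sucnr1 KO over control or of day 2 over day 1, with 95% intervals. DESeq2 1.42.0 was an alternative. The other alternatives changed the scaling, the filter, the day term and the dispersion fit, or left out each library. The code was tested on simulated counts. Libraries held between 30504248 and 38770694 counts. Named are the 10 genes, *Sucnr1*, near-identical copies and the 5 genes most like *Hamp* (mean of at least 1 CPM). In each list, the genes with an unadjusted p under 0.05 are named, or otherwise the one with the largest genotype difference. *Id3*, *Smad6*, *Tmprss6* and *Trf* were added after their values were seen. The members and lists were chosen with earlier results of these data known. Lengths come from GENCODE for GRCm38.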

Additional observations from a re-analysis of the deposited data

How the results depend on the processing

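No paired analysis was possible because the genotypes share only replicate number 3, on different days. Leaving out either library of day 1 repeats the day 2 fit for genotype, because the day term then absorbs the library that remains. No alternative brought any of the 10 genes past the adjusted threshold. For genotype, the count of these genes with an unadjusted p under 0.05 was 0 and became 1 on day 2 alone, and between 0 and 1 with a library left out. Their median log2 fold change, 0.07, was −0.039 on day 2 alone and between −0.039 and 0.11 with a library left out. The count of other pathway genes under 0.05, 2, was 5 by DESeq2 and without the filter, 4 with DESeq2's size factors, with library size alone and without the day term, 1 on day 2 alone, and between 1 and 6 with a library left out. All genes past the adjustment numbered 7 by DESeq2 and 0 with any library left out. Signs turned for *Hamp* (−0.12 to 0.46 with a library left out, the lowest without control library 2), *Fth1* (−0.048 on day 2 alone; −0.048 to 0.10), *Ftl1* (−0.030 on day 2 alone; −0.030 to 0.13) and *Id1* (−0.19 to 0.12). Between days, DESeq2 called 225 genes, edgeR 122 without the filter, and between 0 and 29 with a library left out (29 without control library 2). Of the 10 genes, between 0 and 2 were then under 0.05, and of the other pathway genes between 4 and 9, and 7 without the filter. Day estimates that turned sign were those of *Hamp* (0.00067 without the genotype term; −0.52 to 0.50), *Slc40a1* (−0.68 to 0.17), *Smad7* (−0.45 to 0.40) and *Ftl1* (−0.011 by DESeq2 and with its size factors, −0.013 with library size alone, −0.014 without the filter, −0.00066 without the genotype term; −0.15 to 0.13). The cause was not tested. The level per kb of the principal transcript and the alternatives for the other BMP target genes were chosen after seeing the data. The order of *Hamp* and *Slc40a1* within each day was not a planned comparison.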

Other observations

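*Alas2*, the erythroid form of the first enzyme of haem synthesis, stood at 87.4, 71.2 and 99.9 CPM in the controls and at 85.2, 101 and 89.1 CPM in Hep-Sucnr1 KO. The 4 haemoglobin genes together summed to between 1.61 and 15.1 CPM, with the lowest and the highest library 9.36-fold apart. *Alas2* was thus abundant in libraries whose haemoglobin genes were scarce, and it varied less than they did; it was chosen after its values were seen. *Hmox1*, which degrades haem, was among the most abundant genes of the iron lists, between 2217 and 2980 CPM, with a log2 fold change between genotypes of 0.07 (SE 0.15).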
